A study of Mus musculus with 12 samples.

Results

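The comparison described here joined 2 groups of mice with a cortical stroke into 1 injury group of 6 libraries and set them against 3 libraries of adult mice without stroke. It addresses which differences in gene expression both stroke groups share. The 9 libraries were chosen by their labels, out of 12 in the series. The other 3, labelled P4, are not compared here. They entered the statistical fit to add to the estimate of the spread between libraries, and also the filter on low counts and the scaling. All libraries were RNA sequencing of material labelled as cortical neurons sorted by flow cytometry from C57BL/6 mice. The control group is labelled adult and wild type (adult control 1, 2 and 3). In the stroke group (stroke 4, 5 and 6) a focal lesion of 2 mm was made by giving the light-sensitive dye rose bengal and lighting the cortex from a cold source for 15 min. The second stroke group carries the same lesion and is labelled as treated with GDF10 siRNA (siRNA-labelled 1, 2 and 3). The titles of these samples and the headers of the deposited comparisons name only GDF10, without siRNA. Whether the group received the siRNA or GDF10 itself could not be checked here. GDF10 belongs to the secreted factors of the TGF-beta superfamily. The labels do not give the time after stroke, the age beyond adult, the route of the siRNA, whether a control siRNA was used, whether adult controls had surgery, or whether libraries of a group came from separate animals. P-values therefore measure the spread between these libraries, which may be technical.

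When brain tissue is injured, cells sense nucleic acids and cytokines, and interferon receptors signal to the nucleus to switch on a large set of antiviral genes. Microglia, the resident phagocytes, take up debris, and oligodendrocytes, the myelin-forming cells, can switch on complement and MHC class I genes. Astrocytes normally clear glutamate and potassium from around neurons and are linked to each other by gap junctions, and near a lesion they change their gene expression.

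The 9 libraries held 10517638 to 36009796 counts each, the fewest in adult control 3. That library stood apart from the other 8 on the first principal component, and its log2 levels correlated with those of the other controls at r = 0.681 and 0.753, against 0.902 between those controls (description across genes). Its Xist level was 161 CPM, against 1.82 to 14.6 CPM in the other 8, while Y-linked genes were counted in all 9. More than 1% of counts fell on the 45S rRNA precursor in adult control 2, all 3 stroke libraries and siRNA-labelled 3. Library numbers 1 to 3 were used for controls and siRNA-labelled libraries and 4 to 6 for stroke, so a batch that follows these numbers cannot be told apart from the stroke group. Gdf10 itself had 15, 21 and 0 counts in adult control 1, 2 and 3. Stroke 4, 5 and 6 had 0, 5 and 0, and siRNA-labelled 1, 2 and 3 had 8, 7 and 1. These counts are too few to check the siRNA label. The group that carries it had a mean of 0.310 CPM, against 0.372 CPM in the controls and 0.0534 CPM in the stroke group. On the log2 scale Gdf10 differed from control by -1.11 ± 1.37 (SE, adjusted p = 0.782) over all stroke libraries.

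Of 17909 genes tested, 74 passed at an adjusted p under 0.05 (0.413%), 37 higher and 37 lower in stroke (0.207% each). The test was the quasi-likelihood test of edgeR with Benjamini-Hochberg adjustment over all genes tested, and it counted the difference between the stroke groups as spread. At an unadjusted p under 0.05 there were 2397 genes, and DESeq2, a second tool, called 768, 338 higher and 430 lower. List counts by these 2 measures, given below, are to be read beside these totals. Levels are CPM, the usual depth-scaled counts, here with TMM factors, and changes are log2 fold changes with their SE. Every one of the 37 higher genes was above all 3 controls in all 6 stroke libraries, and 34 of the 37 lower genes were below all 3. Over all genes tested, 3.05% lay wholly above and 2.31% wholly below the controls. The median change was 3.28 among the higher and -2.77 among the lower genes, against 0.02 over all genes. These genes were selected by the same comparison, so large medians and little overlap follow from the selection and are description only. The smallest called changes were 1.305 for Plekhg1 and -1.60 for Gabra3. The calls depended on single libraries: leaving out each of the 9 in turn gave 36 to 409 calls, the fewest without stroke 6 and the most without adult control 2. Without adult control 3, 55 genes passed, and 42 of the 74 were among them. Without adult control 1, 53 passed, and 35 of the 74 were among them. In all 9 such fits 21 of the 74 passed, among them Ifit1, Serpina3n, Oasl2, C4b, Piezo2, H2-D1, Irgm2 and Cldn11 among the higher and Kif5c, Slc1a3, Kif5a, Rapgef4, Slc4a4, Slc1a2, Acsl6, S1pr1, Ntsr2, Gja1 and Gjb6 among the lower genes.

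**Figure D1:**
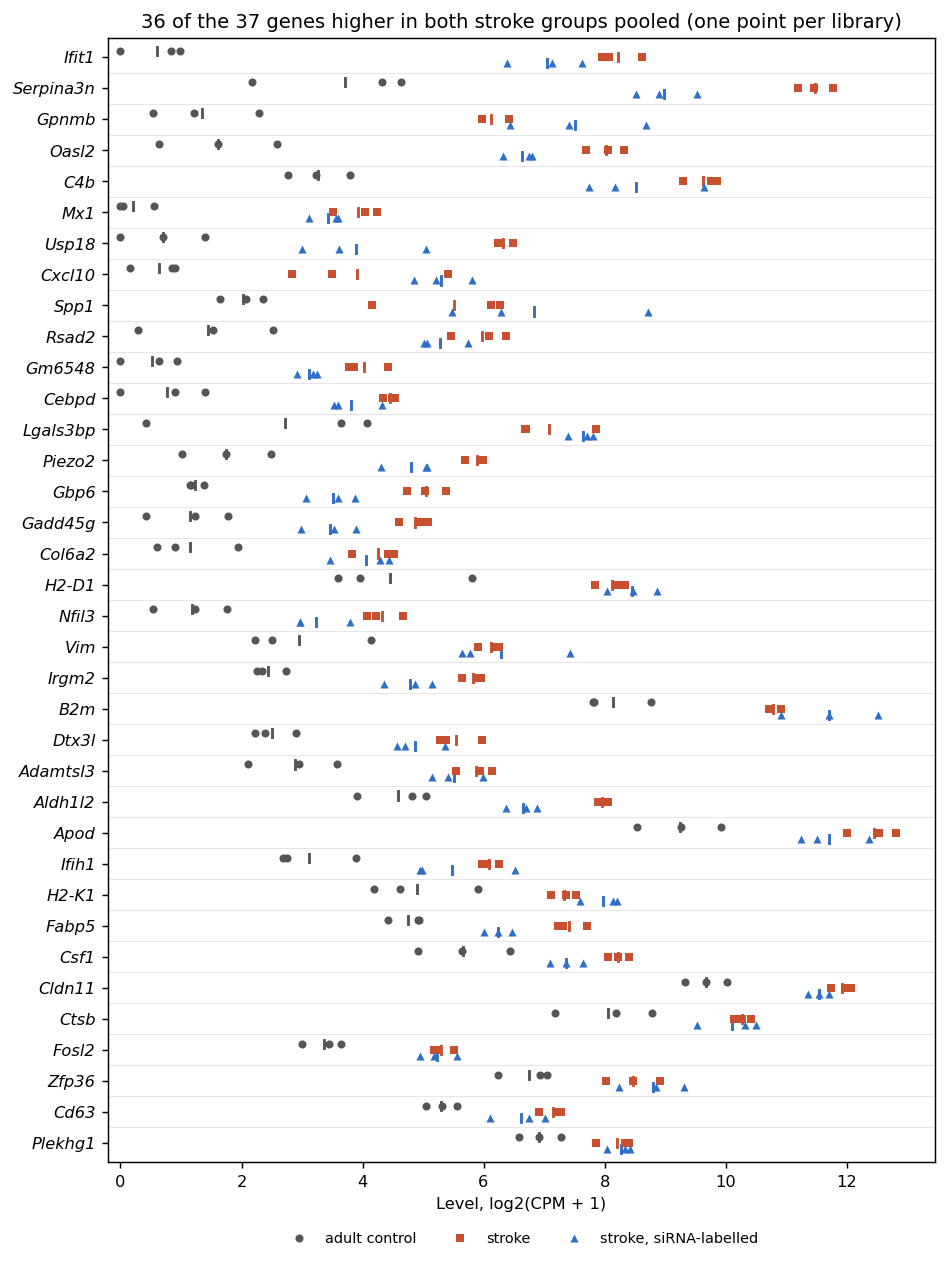
Level of 36 of the 37 genes higher in stroke, as log2(CPM + 1) on the x axis, in each of the 9 libraries; points are libraries, short vertical lines are group means, and genes are ordered by log2 fold change from 8.36 (Ifit1) to 1.305 (Plekhg1). No stroke point of either group lies at or below a control point of the same gene.

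The largest increase among the called genes was in an antiviral gene that interferon induces, and 6 more genes of this kind rose. Ifit1, which binds foreign RNA that lacks host cap methylation, was at 0.793, 0.969 and 0 CPM in adult control 1, 2 and 3. In stroke 4, 5 and 6 it stood at 248, 267 and 392 CPM, and in siRNA-labelled 1, 2 and 3 at 139, 198 and 82.9 CPM. All 6 stroke libraries were thus far above a control level of about 1 CPM or less, with the stroke group above the siRNA-labelled group. Its log2 fold change was 8.36 ± 0.81 (SE, adjusted p = 0.000427), with a 95% interval of 6.63 to 10.08, the largest among the higher genes.

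Oasl2, a member of the oligoadenylate synthetase family, went from 0.555, 5.02 and 2.05 CPM in the controls to 317, 265 and 206 CPM in stroke and 111, 107 and 79.3 CPM in the siRNA-labelled libraries. The groups did not overlap, and the change was 6.12 ± 0.78 (SE, adjusted p = 0.00374). Usp18, a protease that removes ISG15 from proteins and damps interferon receptor signalling, had 0.634, 1.64 and 0 CPM in the controls, 88.6, 74.1 and 75.6 CPM in stroke and 11.3, 7.01 and 32.0 CPM in the siRNA-labelled libraries, a change of 5.85 ± 1.07 (SE, adjusted p = 0.0246). Its level was above control in both stroke groups, and every stroke library was above every siRNA-labelled one. Rsad2, which encodes viperin, an enzyme that makes a chain-terminating nucleotide, was at 4.72, 1.89 and 0.228 CPM in the controls, 43.3, 67.3 and 81.5 CPM in stroke and 31.4, 52.5 and 32.5 CPM in the siRNA-labelled libraries (4.45 ± 0.84 (SE, adjusted p = 0.0266)). Lgals3bp, a secreted glycoprotein that binds galectins, rose from 15.8, 11.5 and 0.342 CPM to 102, 104 and 231 CPM in stroke and 167, 224 and 208 CPM with the siRNA label (4.20 ± 0.80 (SE, adjusted p = 0.0283)). Dtx3l, a ubiquitin ligase that pairs with PARP9, had a control range of 3.69 to 6.51 CPM and a stroke range of 22.6 to 61.9 CPM (2.98 ± 0.47 (SE, adjusted p = 0.0109)). Mx1, the mouse gene for a dynamin-like antiviral GTPase, is annotated by RefSeq as a transcribed pseudogene in the mouse reference genome. It had at most 0.476 CPM in the controls and 7.71 to 18.0 CPM in the stroke libraries, a change of 6.04 ± 1.05 (SE, adjusted p = 0.0172).

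Of the 40 tested genes of the list of interferon-induced effectors, these 7 rose, none fell and 33 did not pass. By unadjusted p under 0.05, 25 were higher and 0 lower, and DESeq2 called 22 higher and 0 lower. All 6 stroke libraries were above all 3 controls for 24 of the 40, against 3.05% of all genes tested. The list's median change was 2.43, against 0.02 over all genes tested. Members that did not pass included Mx2 at 4.03 ± 0.88 (SE, adjusted p = 0.0632), Ifit3 at 3.66 ± 0.81 (SE, adjusted p = 0.0656), Isg15 at 4.61 ± 1.29 (SE, adjusted p = 0.128) and Oas3 at -0.96 ± 1.15 (SE, adjusted p = 0.777). The list held between 0.0291% and 0.0374% of all counts in the controls, 0.177% to 0.236% in stroke and 0.118% to 0.142% in the siRNA-labelled libraries. Of the 7, Ifit1 and Oasl2 passed whichever library was left out. Usp18 did not pass without adult control 1 or any 1 of the stroke libraries, Rsad2 without any 1 of the stroke libraries, Mx1 without stroke 5 and Dtx3l without adult control 1. Lgals3bp did not pass without adult control 1, stroke 4, stroke 6, siRNA-labelled 2 or siRNA-labelled 3. The highest adjusted p in such fits was 0.0937 for Usp18, 0.0770 for Rsad2, 0.0515 for Mx1, 0.0581 for Dtx3l and 0.0761 for Lgals3bp. The fold change, before taking the log, also moved by more than 1.5 times for some of them, given here on the log2 scale. Mx1 was at 9.02 without adult control 1, which had 0.476 CPM against at most 0.0248 CPM in the other controls, and at 5.45 without adult control 2. Oasl2 was at 7.24 and Usp18 at 6.96 without adult control 2, and Rsad2 was at 5.47 and Lgals3bp at 4.81 without adult control 1. The list's count of calls ranged from 4, without adult control 1 or any 1 of the stroke libraries, to 11 without adult control 2.

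**Figure D2:**
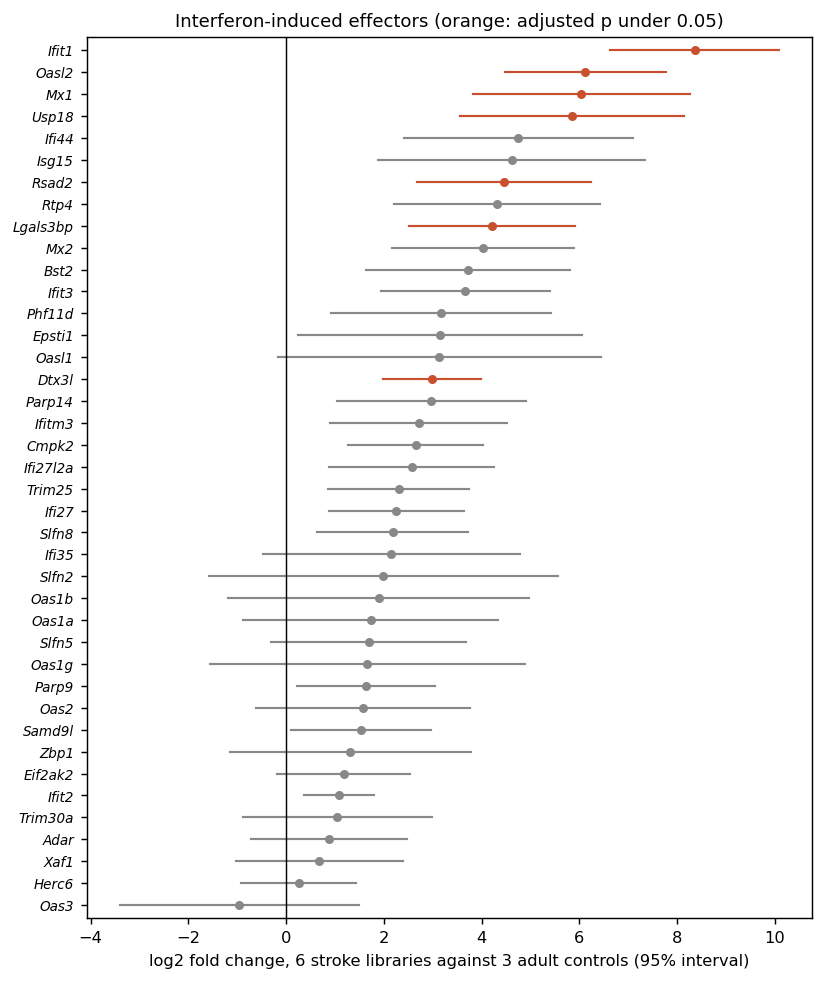
Log2 fold change on the x axis, all stroke libraries against adult control, for the 40 tested genes of the list of interferon-induced effectors; bars are 95% intervals, and orange marks the 7 genes with an adjusted p under 0.05. The median is 2.43, and Oas3 at -0.96 is the member below 0.

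Interferon-induced genes are switched on through a short element, the interferon-stimulated response element, which transcription factors activated by interferon bind. Its core was searched as GAAA, any 2 bases and GAAA again on either strand, which reads TTTC, any 2 bases and TTTC where it lies on the other strand, in the 250 bases before each RefSeq start, build GRCm38.p6 (mm10). No other motif was searched. Of 13163 tested genes with a promoter in the table, 430 held a match (3.27%). Of the 37 higher genes 26 had a promoter in the table, and 7 held a match (26.9%): Ifit1, Cxcl10, Spp1, Rsad2, Irgm2, B2m and Fosl2. None of the 24 lower genes with a promoter did. In the list of interferon-induced effectors it was 11 of 29 (37.9%). A match is a description of the letters, not evidence of binding. The stretches around the matches of 5 of the 7 genes are printed because they show the same core in genes of different roles. They read 5′ to 3′ on the strand of the gene, with the matches in capitals. Rsad2 and Ifit1 are effectors, Cxcl10 is a chemokine, Irgm2 an interferon-inducible GTPase and B2m the light chain of MHC class I. In Ifit1 the 2 matches began 104 and 85 bases before the start. In Rsad2 the match began 120, in Cxcl10 213, in Irgm2 64 and in B2m 139 bases before it.
Ifit1 (chr19:34640745-34640853, plus strand): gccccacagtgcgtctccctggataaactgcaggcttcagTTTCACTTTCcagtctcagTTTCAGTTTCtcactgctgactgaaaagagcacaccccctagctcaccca
Rsad2 (chr12:26456523-26456612, minus strand): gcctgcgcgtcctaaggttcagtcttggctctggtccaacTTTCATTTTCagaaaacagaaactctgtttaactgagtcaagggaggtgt
Cxcl10 (chr5:92349053-92349139, minus strand): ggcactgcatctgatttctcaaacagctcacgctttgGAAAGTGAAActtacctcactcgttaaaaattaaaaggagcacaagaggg
Irgm2 (chr11:58214873-58214962, plus strand): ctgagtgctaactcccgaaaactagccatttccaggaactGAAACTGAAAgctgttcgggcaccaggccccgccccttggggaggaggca
B2m (chr2:122147508-122147597, plus strand): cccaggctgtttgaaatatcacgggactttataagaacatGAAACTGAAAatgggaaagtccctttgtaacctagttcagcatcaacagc

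Of 24 tested genes that sense nucleic acids or carry the interferon signal, 2 rose, none fell and 22 did not pass, with a median change of 1.00. Ifih1, the cytosolic sensor of long double-stranded RNA known as MDA5, had 5.75, 5.47 and 13.9 CPM, 61.9, 75.0 and 65.8 CPM and 30.6, 91.1 and 29.9 CPM in adult control, stroke and the siRNA-labelled libraries (2.83 ± 0.52 (SE, adjusted p = 0.0246)). All 6 stroke libraries were above the controls for 9 of the 24, against 3.05% of all genes tested. The receptor chain Ifnar1 was at 55.9 ± 5.37 CPM (SD, n = 3) in the controls and 60.0 ± 12.3 CPM (SD, n = 6) in the stroke libraries, a difference of 0.10 ± 0.28 (SE, adjusted p = 0.914). The sensor Ddx58, which encodes RIG-I, was at 2.43 ± 0.54 (SE, adjusted p = 0.0656). Irf7, the interferon regulatory factor that amplifies interferon production, was at 3.40 ± 1.04 (SE, adjusted p = 0.156) and did not pass either. Ifih1 did not pass without adult control 1 or any 1 of the stroke libraries, with an adjusted p of up to 0.0952.

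Of 17 interferon-inducible GTPases, which act on membranes around pathogens, 2 rose, none fell and 15 did not pass, with a median of 2.63. Irgm2 rose from 5.63, 4.05 and 3.76 CPM in the controls to 49.2, 58.0 and 61.1 CPM in stroke and 34.5, 19.5 and 28.3 CPM with the siRNA label (3.22 ± 0.53 (SE, adjusted p = 0.0134)). Gbp6 was at 1.23, 1.61 and 1.25 CPM in the controls, 31.7, 25.7 and 40.8 CPM in stroke and 13.7, 11.06 and 7.36 CPM in the siRNA-labelled group (3.98 ± 0.73 (SE, adjusted p = 0.0246)). Both genes had all stroke libraries above all siRNA-labelled ones, and those above all controls. Gbp6 did not pass without adult control 1, adult control 3 or any 1 of the stroke libraries, with an adjusted p of up to 0.0921. Gbp7 was at 3.07 ± 0.67 (SE, adjusted p = 0.0632) and Igtp at 3.66 ± 0.96 (SE, adjusted p = 0.111). The largest change in the list, 8.31, was in a gene that did not pass.

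Of 20 tested genes of MHC class I presentation, by which cells show peptides on their surface, 3 rose in the pooled comparison, none fell and 17 did not pass, with a median of 1.32. The heavy chain H2-D1 was at 14.6, 55.1 and 11.06 CPM in the controls, 229, 322 and 294 CPM in stroke and 262, 353 and 467 CPM in the siRNA-labelled libraries (3.57 ± 0.52 (SE, adjusted p = 0.00658)). For the heavy chain H2-K1 the levels were 23.6, 58.8 and 17.2 CPM, 138, 183 and 163 CPM and 192, 293 and 279.6 CPM (2.64 ± 0.44 (SE, adjusted p = 0.0135)). The light chain B2m went from 222, 225 and 436 CPM to 1683, 1678 and 1921 CPM and 3339, 5841 and 1935 CPM (3.21 ± 0.66 (SE, adjusted p = 0.0458)). For H2-K1 and B2m the siRNA-labelled libraries all lay above the stroke libraries, and for H2-D1 the stroke groups overlapped. Without adult control 2 the changes of H2-D1 and H2-K1 were 4.65 and 3.35. The peptide transporter Tap1 was at 3.00 ± 0.83 (SE, adjusted p = 0.124) and the immunoproteasome subunit Psmb8 at 3.46 ± 1.01 (SE, adjusted p = 0.144). B2m did not pass when any 1 of the 9 libraries was left out (adjusted p 0.0529 to 0.118), and H2-K1 did not without adult control 1 (0.0686). Without adult control 1 the list held 1 call. Reads of the H2 family can be split between close paralogs, so the values of single members are uncertain. None of the 7 class II genes passed in edgeR, 2 had an unadjusted p under 0.05, both higher, and DESeq2 called 1. Their median was 2.22, and Cd74, the invariant chain, was at 3.96 ± 1.26 (SE, adjusted p = 0.170).

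Serpina3n and C4b, a secreted inhibitor of serine proteases and complement component 4, were among the 5 called genes with the largest increases. Serpina3n (chr12:104406646-104414334) was at 18.9, 23.9 and 3.54 CPM in the controls, 2809, 3493 and 2344 CPM in stroke and 364, 479 and 741 CPM in the siRNA-labelled libraries. The groups did not overlap, and the change was 6.77 ± 0.96 (SE, adjusted p = 0.00605). C4b (chr17:34728139-34743902), was at 5.83, 12.9 and 8.44 CPM, 924, 865 and 625 CPM and 214, 286 and 798 CPM (6.09 ± 0.69 (SE, adjusted p = 0.00158)). Here the stroke groups overlapped, through siRNA-labelled 3. C4b has a near-identical neighbour, C4a, and the Serpina3 family is large, so reads may be shared between copies. C4a was at -1.94 ± 1.01 (SE, adjusted p = 0.422). C4b was the 1 gene that rose among 22 complement genes, none fell, and the median was 0.63. The classical pathway subunit C1qc was at 2.11 ± 0.77 (SE, adjusted p = 0.233) and the central component C3 at 2.65 ± 0.79 (SE, adjusted p = 0.148).

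Both genes belong to a list of genes known from oligodendrocytes in injured tissue, which had as many calls as the list of interferon-induced effectors. Of its 20 tested genes 7 rose, none fell and 13 did not pass. All 6 stroke libraries were above the controls for 12, against 3.05% of all genes tested. The median was 2.41. The 7 were C4b, Serpina3n, H2-D1, H2-K1, B2m, Apod and Cd63, so that 3 of them are also members of the class I list. Apod, a lipid-binding apolipoprotein, was at 617, 972 and 370.2 CPM in the controls, 7192, 5935 and 4126 CPM in stroke and 2426, 2914 and 5322 CPM in the siRNA-labelled libraries (2.83 ± 0.47 (SE, adjusted p = 0.0134)). Cd63, a tetraspanin of lysosomes and exosomes, had a control range of 32.1 to 46.1 CPM and a stroke range of 67.5 to 155 CPM (1.64 ± 0.32 (SE, adjusted p = 0.0366)). The protease Klk6 was at 3.83 ± 0.91 (SE, adjusted p = 0.0815) and the alarmin Il33 at 1.18 ± 0.46 (SE, adjusted p = 0.258). Without adult control 1 the list held 4 calls, Apod not among them (adjusted p 0.0631). Cd63 passed only without adult control 2 or siRNA-labelled 1, and otherwise had an adjusted p of up to 0.146.

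Of 12 oligodendrocyte markers, Cldn11, which forms the tight junctions of myelin, was the 1 that rose, and none fell. It was at 1039, 818 and 642 CPM in the controls, 3410, 4285 and 4005 CPM in stroke and 2639, 3361 and 2983 CPM in the siRNA-labelled libraries (2.05 ± 0.32 (SE, adjusted p = 0.0105)). The median of the 12 was 0.54. Mbp, myelin basic protein, was at 0.71 ± 0.36 (SE, adjusted p = 0.410). Together the 12 markers held 3.93% to 9.44% of counts in the controls, 5.28% to 6.54% in stroke and 6.61% to 10.6% in the siRNA-labelled libraries (exact permutation p = 0.405). The 15 pan-neuronal markers held 0.202% to 0.671% in the 9 libraries. The shares are not corrected for gene length. The label names sorted neurons, but in each of the 9 libraries the oligodendrocyte markers held a larger share than the pan-neuronal ones. None of the oligodendrocyte markers was at 0 in all 9 libraries. What part these other cells have in the results was not tested.

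Genes of activated phagocytes and lipid handling rose in 4 of 25 tested, none fell, and the median was 2.04. Gpnmb, a membrane glycoprotein of phagocytes, was at 1.31, 3.90 and 0.456 CPM in the controls, 61.9, 61.6 and 84.6 CPM in stroke and 86.0, 409 and 169 CPM in the siRNA-labelled libraries (6.19 ± 1.07 (SE, adjusted p = 0.0171)). Spp1, the secreted protein osteopontin, was at 3.21, 2.14 and 4.11 CPM, 68.6, 76.5 and 16.9 CPM and 77.4, 420.1 and 43.6 CPM (5.23 ± 0.93 (SE, adjusted p = 0.0206)). Both were highest in siRNA-labelled 2. Ctsb, the lysosomal protease cathepsin B, had a control range of 144 to 441 CPM and a stroke range of 733 to 1445 CPM (2.04 ± 0.36 (SE, adjusted p = 0.0201)). Fabp5, a fatty acid carrier, was at 29.2, 29.5 and 20.4 CPM, 149, 209 and 157 CPM and 63.1, 87.5 and 74.8 CPM (2.22 ± 0.41 (SE, adjusted p = 0.0246)), in the order control, siRNA-labelled, stroke with no overlap. None of the 4 passed without adult control 1 or without adult control 3, where the list held 0 calls. Ctsb and Cxcl10, described next, did not pass without stroke 6 either, nor did Fabp5 without any 1 of the stroke libraries. The highest adjusted p was 0.0770 for Gpnmb, 0.0789 for Spp1, 0.0789 for Ctsb and 0.117 for Fabp5. Gpnmb was at 7.26 without adult control 2 and 5.55 without siRNA-labelled 2, and Spp1 at 4.19 without siRNA-labelled 2. Apoe, the main lipid carrier of the brain, was at 2.17 ± 0.71 (SE, adjusted p = 0.184), and the lysozyme Lyz2 at 3.67 ± 0.93 (SE, adjusted p = 0.101).

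Microglial markers were measured beside these genes. None of 16 passed in edgeR, 5 had an unadjusted p under 0.05, all higher, and DESeq2 called 0. Their median was 0.93, with Tyrobp at 2.10 ± 0.77 (SE, adjusted p = 0.231) and P2ry12, a receptor of resting microglia, at -1.09 ± 0.67 (SE, adjusted p = 0.522). Their summed share was 0.0826% to 0.138% of counts in the controls, 0.0451% to 0.155% in stroke and 0.220% to 0.424% in the siRNA-labelled libraries. All siRNA-labelled libraries were thus above all others, while stroke overlapped the controls, and none of the markers was at 0 in all 9 libraries. The part of this difference in the phagocyte and class I results was not tested. In bulk libraries more cells of a type and more RNA per cell cannot be told apart.

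Among 16 chemokines Cxcl10, which draws T cells through the receptor CXCR3, was the 1 that rose, and none fell. It was at 0.872, 0.795 and 0.114 CPM in the controls, 6.11, 10.31 and 41.4 CPM in stroke and 36.2, 54.8 and 28.0 CPM in the siRNA-labelled libraries (5.53 ± 1.02 (SE, adjusted p = 0.0246)). Within the stroke group it ranged from 6.11 to 41.4 CPM. It did not pass without adult control 1, adult control 3 or stroke 6 (adjusted p up to 0.0789). Csf1, the growth factor of microglia and macrophages, had a control range of 29.1 to 85.8 CPM, a stroke level of 338, 297 and 265 CPM and 136, 164 and 198 CPM with the siRNA label (2.09 ± 0.41 (SE, adjusted p = 0.0391)), and was the 1 of 17 growth factors and cytokines of repair that rose, with none lower. It did not pass without adult control 1, adult control 3, any 1 of the stroke libraries or siRNA-labelled 3 (adjusted p up to 0.155). None of 19 NF-kappaB cytokines and feedback genes passed in edgeR, where 3 were higher and 1 lower by unadjusted p under 0.05, and DESeq2 called 2 higher and 1 lower. Over all 17909 genes tested these totals were 2397 and 768.

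Of 17 reactive astrocyte genes Serpina3n, Cxcl10 and Vim rose, none fell, and the median was 1.06. Vim, the intermediate filament vimentin, was at 3.65, 16.6 and 4.68 CPM in the controls, 73.1, 59.0 and 75.4 CPM in stroke and 49.3, 171 and 53.9 CPM in the siRNA-labelled libraries (3.26 ± 0.62 (SE, adjusted p = 0.0291)). It did not pass without adult control 1, adult control 3 or any 1 of the stroke libraries (adjusted p up to 0.135), and was at 4.28 without adult control 2. Gfap, the filament protein by which reactive astrocytes are usually known, had a mean of 4.24 ± 3.55 CPM (SD, n = 3) in the controls and 20.8 ± 10.7 CPM (SD, n = 6) in the stroke libraries, and at 2.31 ± 0.64 (SE, adjusted p = 0.126) it did not pass. Among 22 AP-1, ATF and injury transcription factors Fosl2 and Cebpd rose and none fell, with a median of 0.96. Fosl2, an AP-1 subunit, had 6.98, 9.86 and 11.5 CPM in the controls, 36.5, 35.2 and 44.4 CPM in stroke and 29.9, 46.4 and 35.2 CPM in the siRNA-labelled libraries (2.01 ± 0.36 (SE, adjusted p = 0.0242)). For Cebpd, a transcription factor of the acute phase response, the levels were 0.872, 1.64 and 0 CPM, 22.1, 21.4 and 19.3 CPM and 11.08, 18.9 and 10.5 CPM (4.27 ± 0.85 (SE, adjusted p = 0.0415)). Neither passed without adult control 1, any 1 of the stroke libraries or siRNA-labelled 3, nor did Cebpd without siRNA-labelled 1 or 2 (adjusted p up to 0.0937 and 0.113), and Cebpd was at 5.12 without adult control 2. The list held 0 calls without adult control 1. Zfp36, which binds and destabilises cytokine mRNAs, rose from 74.5, 132 and 122 CPM to 354, 260.5 and 481 CPM and 460.5, 636 and 303 CPM (1.93 ± 0.34 (SE, adjusted p = 0.0177)), and did not pass without adult control 1 (0.0796). Cebpd and Zfp36 are also members of a list of 24 genes known to respond to tissue dissociation, of which these 2 rose and none fell. By unadjusted p under 0.05, 12 of the 24 were higher and 1 lower, and DESeq2 called 7 higher and 0 lower. All 6 stroke libraries were above the controls for 10 of the 24 and below them for 2, against 3.05% and 2.31% of all genes tested. That list held 0.293% to 0.534% of counts in the controls and 0.493% to 0.652% in the stroke libraries, and its part in these results was not tested.

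Other genes rose outside these lists. Piezo2, a mechanically gated ion channel best known from touch-sensing neurons, was at 4.60, 2.36 and 1.03 CPM in the controls, 62.5, 62.0 and 51.0 CPM in stroke and 32.4, 18.7 and 32.1 CPM in the siRNA-labelled libraries (3.99 ± 0.59 (SE, adjusted p = 0.00658)). It passed whichever library was left out, with a change of 4.63 without adult control 1, and its 3 groups did not overlap. Aldh1l2, the mitochondrial enzyme of folate metabolism, was at 14.0, 32.1 and 27.3 CPM, 237, 242 and 266 CPM and 82.2, 117 and 103 CPM (2.83 ± 0.47 (SE, adjusted p = 0.0134)). Adamtsl3, a secreted matrix protein, rose from 3.31 to 10.98 CPM to 34.6 to 69.7 CPM (2.89 ± 0.50 (SE, adjusted p = 0.0169)). Neither passed without adult control 1. Col6a2, a chain of collagen VI, was the 1 of 25 collagens and laminins that rose, with none lower, from 0.872, 0.522 and 2.85 CPM to 20.5, 21.9 and 13.2 CPM in stroke and 10.02, 20.6 and 18.5 CPM with the siRNA label (3.68 ± 0.68 (SE, adjusted p = 0.0246)). It did not pass without adult control 1, any 1 of the stroke libraries or siRNA-labelled 3 (adjusted p up to 0.0955), and was at 4.65 without adult control 3. Gadd45g, a growth arrest gene, was at 3.78 ± 0.77 (SE, adjusted p = 0.0434), the transcription factor Nfil3 at 3.28 ± 0.66 (SE, adjusted p = 0.0415), Plekhg1 at 1.305 ± 0.27 (SE, adjusted p = 0.0465) and the predicted gene Gm6548 at 4.45 ± 0.89 (SE, adjusted p = 0.0415). Each of these last 4 passed in at most 2 of the 9 fits that left out 1 library, and without adult control 2 Gadd45g was at 4.46, Nfil3 at 3.90 and Gm6548 at 5.17.

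Among the genes that fell in the pooled comparison were those by which astrocytes take up glutamate and couple to each other. Slc1a2, the main glutamate transporter of astrocytes (chr2:102658239-102790784), was at 4766, 3131 and 4491 CPM in the controls, 673, 388 and 628 CPM in stroke and 1330, 709.9 and 805 CPM in the siRNA-labelled libraries (-2.45 ± 0.32 (SE, adjusted p = 0.00438)). Slc1a3, the other astrocyte glutamate transporter, was at 185, 209 and 339.7 CPM, 60.7, 56.6 and 53.9 CPM and 53.8, 50.1 and 79.8 CPM (-2.05 ± 0.29 (SE, adjusted p = 0.00605)). No stroke library of either group reached a control level for these transporters. Gja1, which encodes connexin 43, was at 79.5, 41.4 and 82.2 CPM in the controls, 7.66, 0.480 and 1.303 CPM in stroke and 5.63, 7.01 and 5.28 CPM in the siRNA-labelled libraries (-3.89 ± 0.63 (SE, adjusted p = 0.0123)). Gjb6, which encodes connexin 30, was at 76.8, 39.5 and 33.2 CPM, 2.42, 2.27 and 0.923 CPM and 5.07, 1.04 and 4.65 CPM (-4.19 ± 0.62 (SE, adjusted p = 0.00658)). These 2 gap junction genes had the largest falls of the list. Slc4a4, the sodium bicarbonate cotransporter, fell from 139 to 315 CPM to 28.1 to 62.6 CPM (-2.41 ± 0.36 (SE, adjusted p = 0.00658)). Ntsr2, a neurotensin receptor of astrocytes, fell from 23.4 to 45.9 CPM to 2.45 to 6.70 CPM (-2.76 ± 0.44 (SE, adjusted p = 0.0111)).

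Of 24 tested genes of astrocyte homeostasis 7 fell, the genes above among them, none rose and 17 did not pass. All 6 stroke libraries were below the controls for 12 of the 24, against 2.31% of all genes tested, and the median was -2.09. All 7 passed whichever library was left out, and without adult control 3 the list held 9 calls. Not every member was lower. Glul, glutamine synthetase, was at 1670 ± 259.9 CPM (SD, n = 3) in the controls and 1815 ± 219 CPM (SD, n = 6) in the stroke libraries (0.12 ± 0.27 (SE, adjusted p = 0.892)). Aqp4, the water channel of astrocyte endfeet, was at 0.12 ± 0.48 (SE, adjusted p = 0.945), Hepacam at -0.01 ± 0.32 (SE, adjusted p = 0.996) and the potassium channel Kcnj10 at 0.59 ± 0.33 (SE, adjusted p = 0.468). Of the 12 astrocyte markers 6 fell in edgeR, all of them also in this list, and none rose. By unadjusted p under 0.05, 8 were lower and 2 higher, and DESeq2 called 7 lower and 1 higher. All 6 stroke libraries were below the controls for 6 of the 12 and above them for 1. The summed share of counts of the 12 was 0.437% to 0.644% in the controls, 0.0882% to 0.124% in stroke and 0.0893% to 0.154% in the siRNA-labelled libraries (exact two-sided permutation p = 0.0238, the smallest that 6 against 3 libraries allow, and 0.143 adjusted over 12 marker lists). Slc1a2, at a mean of 4129 CPM in the controls and 756 CPM in the stroke libraries, made up most of the control share. The share thus largely follows that gene. None of the 12 was at 0 in all 9 libraries. Whether fewer astrocytes or less RNA of these genes per cell lay behind the share cannot be told apart here.

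Outside the list fell Sox9, a transcription factor that marks astrocytes, from 16.5 to 34.9 CPM to 4.52 to 6.52 CPM (-2.25 ± 0.39 (SE, adjusted p = 0.0184)). Slco1c1, a thyroid hormone transporter, went from 24.7, 21.2 and 6.50 CPM in the controls to 0.345, 0.352 and 0.814 CPM in stroke and 1.49, 1.56 and 0.433 CPM with the siRNA label (-4.41 ± 0.70 (SE, adjusted p = 0.0106)). S1pr1, a receptor for sphingosine 1-phosphate, fell from 73.0 to 101 CPM to 7.18 to 17.6 CPM (-2.64 ± 0.35 (SE, adjusted p = 0.00482)), and Acsl6 and Acsbg1, which activate long-chain fatty acids, were at -2.45 ± 0.35 (SE, adjusted p = 0.00605) and -2.86 ± 0.57 (SE, adjusted p = 0.0415). Fam107a, an actin-associated protein, was at 246, 144 and 89.1 CPM, 16.3, 8.71 and 14.6 CPM and 42.7, 17.7 and 40.3 CPM (-2.77 ± 0.46 (SE, adjusted p = 0.0135)), and Slc30a10, a manganese exporter, at 21.7, 12.3 and 17.6 CPM, 1.35, 1.86 and 0.869 CPM and 3.71, 4.63 and 3.99 CPM (-2.65 ± 0.50 (SE, adjusted p = 0.0259)). In both of these genes all siRNA-labelled libraries lay between stroke and control. S1pr1 and Acsl6 passed whichever library was left out. Slco1c1 and Fam107a did not pass without adult control 1, Slc30a10 without adult control 1 or any 1 of the stroke libraries, and Sox9 without adult control 1, stroke 4, stroke 5 or siRNA-labelled 3. Acsbg1 passed in 2 of the 9 fits (adjusted p 0.0424 to 0.113).

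**Figure D3:**
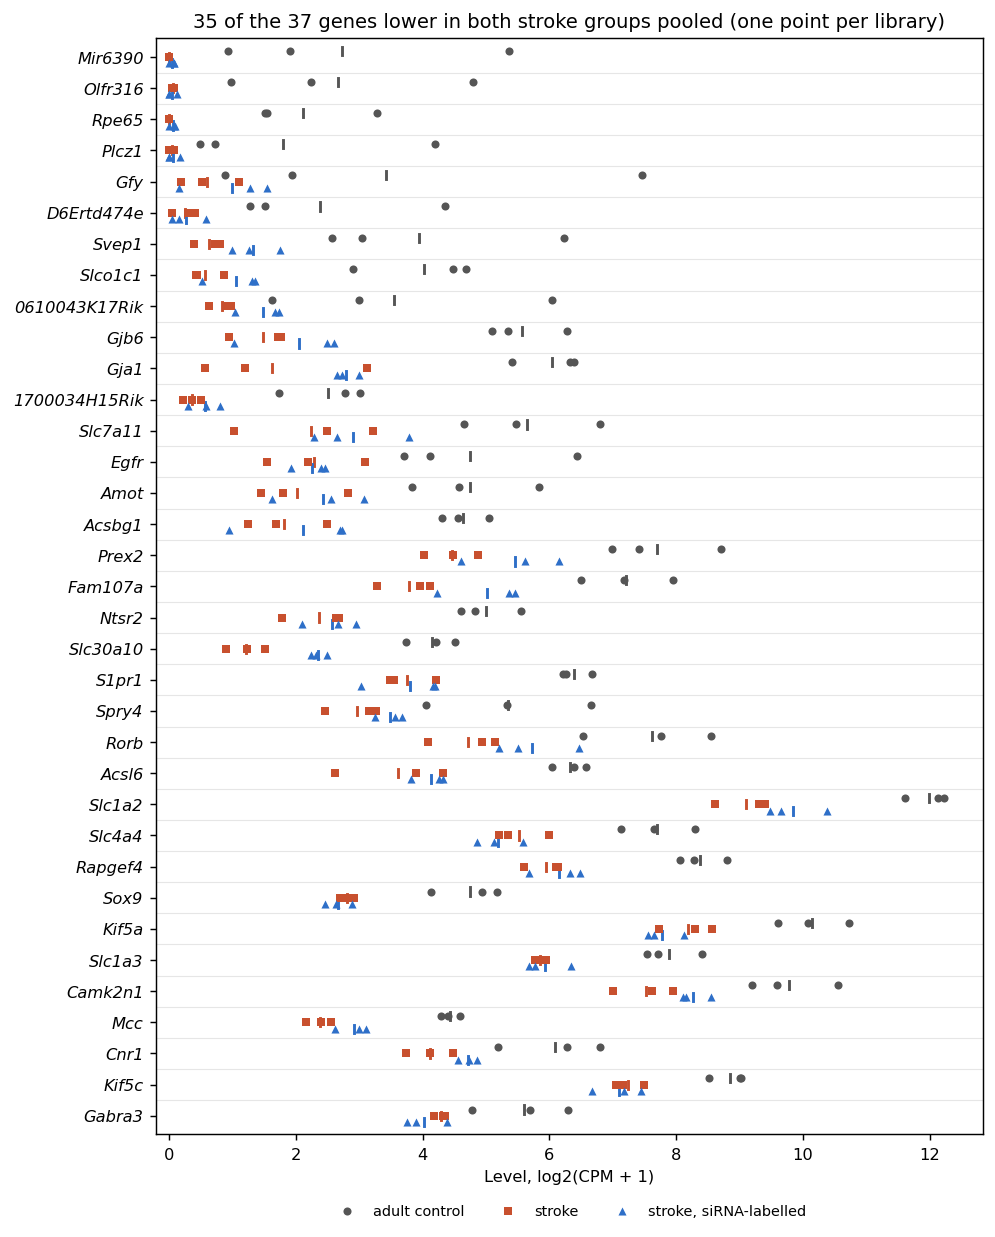
Level of 35 of the 37 genes lower in stroke, as log2(CPM + 1) on the x axis, in each of the 9 libraries; points are libraries, short vertical lines are group means, and genes are ordered by log2 fold change from -9.23 (Mir6390) to -1.60 (Gabra3). In the upper rows 1 control point, adult control 3, lies far to the right of the other 2, whereas for Slc1a2 or Kif5c the 3 controls lie together.

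Some of the other lower genes are known from neurons, and they were grouped here after their values were seen. Kif5a and Kif5c, motor subunits of kinesin-1 that carry cargo along axons, were measured at 1074, 1698 and 776 CPM and 518, 514 and 366 CPM in the 3 controls. In stroke they were at 375, 210.3 and 313 CPM and 179.6, 141 and 132 CPM, and in the siRNA-labelled libraries at 199, 187 and 277 CPM and 144, 101 and 173 CPM. Both were lower in every stroke library than in every control, with changes of -2.18 (adjusted p = 0.00786) and -1.68 (adjusted p = 0.00602) on the log2 scale. Rapgef4, an exchange factor for Rap proteins that responds to cyclic AMP, was at 308, 267 and 446 CPM in the controls, 67.5, 47.5 and 69.2 CPM in stroke and 79.2, 88.0 and 49.9 CPM in the siRNA-labelled libraries (-2.35 ± 0.27 (SE, adjusted p = 0.00168)). These 3 genes passed whichever library was left out. Cnr1, the cannabinoid receptor of nerve endings, was at -1.81 ± 0.34 (SE, adjusted p = 0.0246) and Camk2n1, an inhibitor of the kinase CaMKII, at -1.93 ± 0.33 (SE, adjusted p = 0.0164). Gabra3, a subunit of GABA-A receptors, fell from 26.5 to 77.4 CPM to 12.5 to 19.9 CPM (-1.60 ± 0.33 (SE, adjusted p = 0.0474)). Rorb, a transcription factor of layer 4 neurons, was at 215, 91.8 and 373 CPM in the controls, 34.2, 16.0 and 29.6 CPM in stroke and 87.0, 44.2 and 36.0 CPM in the siRNA-labelled libraries (-2.46 ± 0.48 (SE, adjusted p = 0.0354)). Gabra3 passed only without adult control 2 (adjusted p up to 0.250 otherwise), Rorb only without adult control 2 or siRNA-labelled 1 (up to 0.213), and Cnr1 in 3 of 9 fits (up to 0.160). Camk2n1 did not pass without adult control 1 or stroke 6.

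The wider neuronal lists held few calls. Of 37 glutamate and GABA receptor genes Gabra3 fell and none rose, with a median of -0.64. At an unadjusted p under 0.05, 13 were lower and 0 higher, and DESeq2 called 6 lower. The AMPA receptor subunit Gria2 was at -0.96 ± 0.26 (SE, adjusted p = 0.121), with all 6 stroke libraries below the controls. None of 30 synaptic vesicle genes and none of 40 potassium channel genes passed in edgeR, with medians of -0.49 for both. By unadjusted p 10 vesicle genes were lower and 1 higher, as were 10 and 1 potassium channels, and DESeq2 called 3 lower and 1 higher vesicle genes and 5 lower channels. Of 15 excitatory neuron markers Rorb fell and none rose, and of 15 pan-neuronal markers none passed in edgeR, 3 were lower by unadjusted p and DESeq2 called 1 lower. The excitatory markers held 0.0712% to 0.142% of counts in the controls and 0.0315% to 0.0524% in the stroke libraries (exact permutation p = 0.0238, adjusted 0.143). The pan-neuronal markers held 0.237% to 0.671% in the controls and 0.202% to 0.317% in the stroke libraries, an overlap (exact permutation p = 0.0952, adjusted 0.286). The part of these shares in the neuronal results was not tested.

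**Figure D4:**
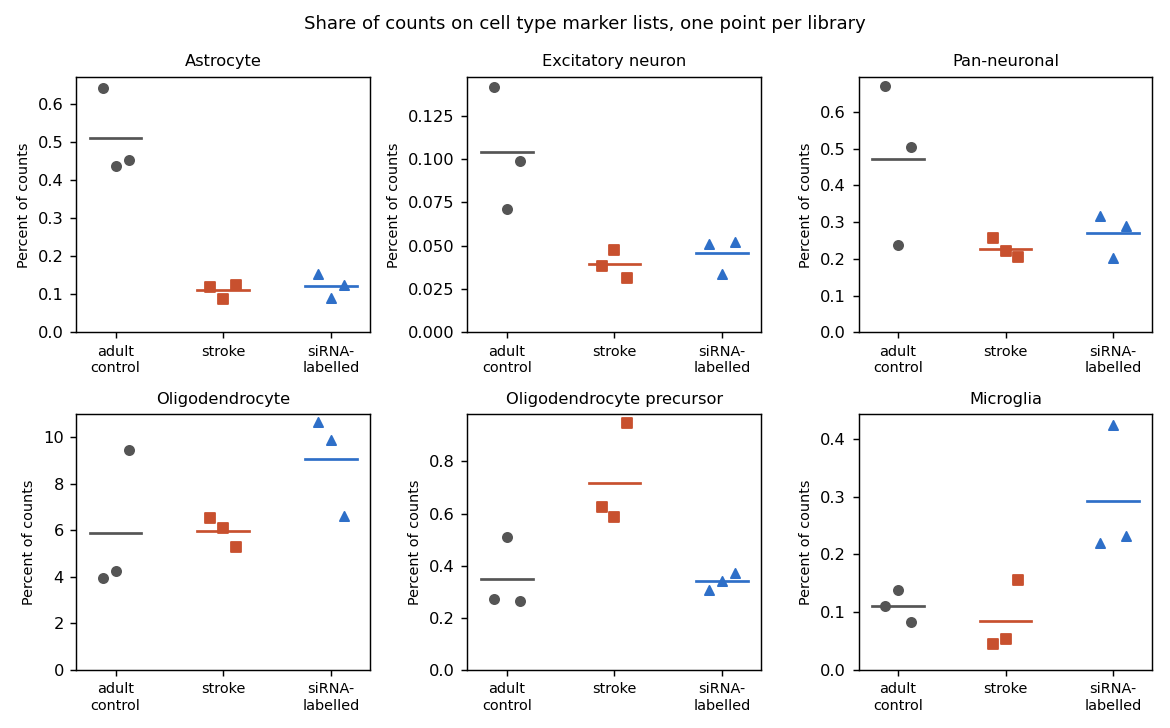
Percent of all counts on 6 lists of cell type markers on the y axis, which starts at 0, with 1 point per library and a line at each group mean. The astrocyte share is 0.437% to 0.644% in the controls and at most 0.154% in the stroke libraries, and the microglial share is highest in the siRNA-labelled libraries.

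Another set of falls rested on adult control 3. In 14 of the 37 lower genes that library was more than 2 times as high as both other controls, as it was for 19.6% of all genes tested. Without it none of the 14 passed, against 18 of the other 23. Among the 14, the olfactory receptor gene Olfr316 was at 3.73, 0.969 and 26.7 CPM in the controls and at most 0.0866 CPM in the stroke libraries (-7.95 ± 1.27 (SE, adjusted p = 0.0111), and -5.85 with adjusted p = 0.244 without adult control 3). Svep1, a large extracellular adhesion protein, was at 7.22, 4.92 and 73.7 CPM in the controls and 0.311 to 2.35 CPM in stroke (-4.74 ± 0.87 (SE, adjusted p = 0.0246), -2.51 without that library). Egfr, the receptor of epidermal growth factor, was at 16.3, 12.098 and 85.5 CPM in the controls, 7.53, 1.92 and 3.58 CPM in stroke and 4.52, 2.78 and 4.25 CPM with the siRNA label (-3.21 ± 0.61 (SE, adjusted p = 0.0280), -1.79 without it). Slc7a11, the cystine and glutamate exchanger, was at 43.6, 24.2 and 110.2 CPM, 4.59, 1.03 and 8.25 CPM and 5.26, 12.7 and 3.90 CPM (-3.32 ± 0.61 (SE, adjusted p = 0.0246), -2.51 without it). It was the 1 call in the list of 15 integrated stress response genes, in which none rose. Prex2 was at -2.78 ± 0.50 (SE, adjusted p = 0.0222), Amot at -2.90 ± 0.58 (SE, adjusted p = 0.0415), Spry4 at -2.57 ± 0.48 (SE, adjusted p = 0.0266), D6Ertd474e at -5.22 ± 1.07 (SE, adjusted p = 0.0469) and the sperm phospholipase gene Plcz1 at -7.42 ± 1.49 (SE, adjusted p = 0.0415). Without adult control 3 these were -2.10, -2.13, -1.66, -3.02 and -3.85. Gfy and 0610043K17Rik also belong here, and in both of them at least 1 stroke library overlapped the lowest control. Without adult control 3 their changes of -6.13 and -4.21 became -1.09 and -1.76. Rpe65 had 2 counts in all 6 stroke libraries and Mir6390 had 3, where the ratio of the control level to the stroke level was 197 (95% interval 53.7 to 1634, counting error only) and 302 (103 to 1468). In adult control 3 they were at 8.67 and 40.3 CPM, and their log2 changes of -7.63 and -9.23 became -6.48 (adjusted p = 0.244) and -6.25 (adjusted p = 0.209) without that library. Leaving out siRNA-labelled 1 or 2 gave -8.28 and -8.25 for Rpe65 and siRNA-labelled 3 gave -10.01 for Mir6390, and Plcz1 was at -8.21 without siRNA-labelled 1. Whether the Mir6390 reads come from the microRNA gene or from a longer overlapping transcript cannot be told apart. The remaining lower genes were Mcc at -1.93 ± 0.39 (SE, adjusted p = 0.0415) and 1700034H15Rik at -3.67 ± 0.76 (SE, adjusted p = 0.0474), each of which passed in 1 of the 9 fits.

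The stroke groups were then set against each other for the same genes. Of the 37 higher genes, 16 had all stroke libraries above all siRNA-labelled ones and 3 (Gpnmb, B2m and H2-K1) the reverse, against 8.11% and 7.77% of all genes tested. Serpina3n was lower with the siRNA label by -2.45 on the log2 scale (95% interval -3.57 to -1.33), Usp18 by -2.24 (-3.86 to -0.63), and Gbp6 by -1.61 (-2.85 to -0.38). In the other direction stood Spp1 at 1.74 (0.22 to 3.26), Gpnmb at 1.67 (-0.04 to 3.39) and B2m at 1.07 (-0.20 to 2.35). These intervals are not adjusted for the number of genes. None of the 74 passed between the stroke groups in edgeR, where 1 gene of 17909 did (0.00558%), with a smallest adjusted p of 0.379 among the 74. Unadjusted p was under 0.05 for 12 of the 37 higher and 3 of the 37 lower genes, against 7.37% of all genes tested. DESeq2 called 4 of the 74 between the stroke groups, Serpina3n, Fabp5 and Slc30a10 among them, out of 161 genes in all. Of the 37 lower genes, 9 had all siRNA-labelled libraries above all stroke ones and 0 the reverse. A pooled call does not show that the groups changed alike. Differences near 0 were measured for Plekhg1 at 0.05 (-0.58 to 0.68), Fosl2 at -0.06 (-0.89 to 0.78) and Ctsb at -0.11 (-0.93 to 0.71) among the higher, and Slc1a3 at 0.10 (-0.67 to 0.87), Kif5c at -0.11 (-0.72 to 0.49) and S1pr1 at 0.11 (-0.83 to 1.05) among the lower genes.

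**Figure D5:**
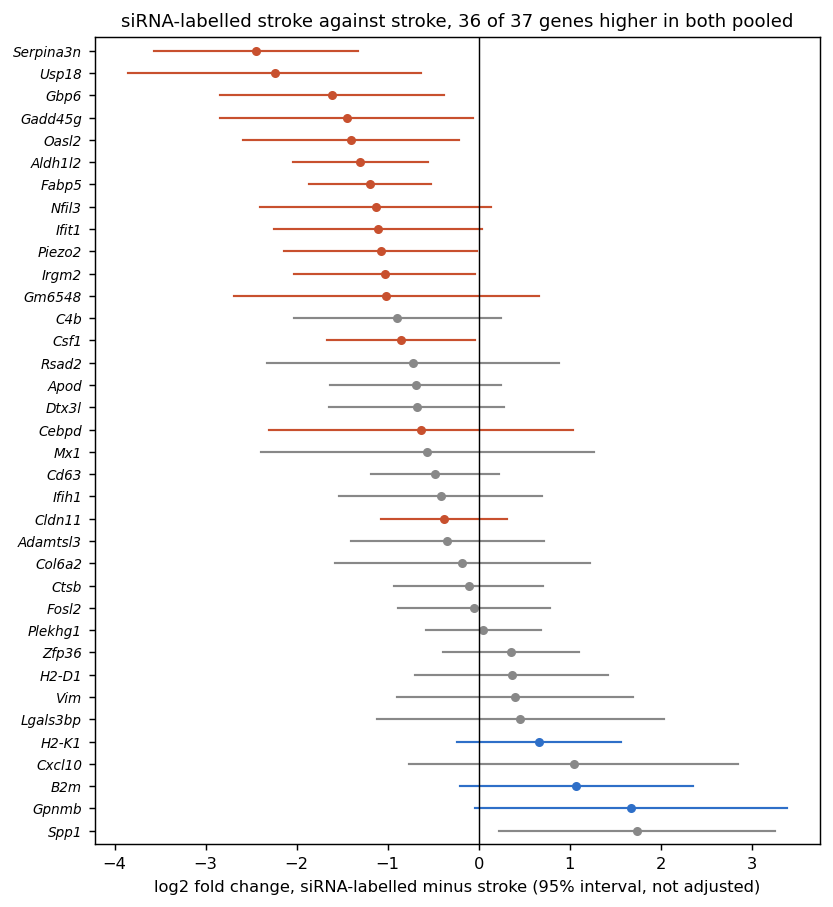
Difference between the siRNA-labelled and the stroke group on the x axis, as log2 fold change with unadjusted 95% intervals, for 36 of the 37 genes higher in both pooled. Orange marks the 15 plotted genes with all stroke libraries above all siRNA-labelled ones and blue the 3 with the reverse; the difference runs from -2.45 for Serpina3n to 1.74 for Spp1.

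Each stroke group was also set against adult control on its own. These comparisons share the 3 control libraries, so their values are given side by side and nothing is read from their likeness. Stroke alone gave 126 calls (0.704%), 87 higher (0.486%) and 39 lower (0.218%). The siRNA-labelled group alone gave 21 (0.117%), 15 higher (0.0838%) and 6 lower (0.0335%). Of the 74 pooled calls, 58 passed in stroke alone and 20 in the siRNA-labelled group alone. For Ifit1 the change was 8.80 in stroke and 7.69 with the siRNA label, for Oasl2 6.66 and 5.25, for Serpina3n 7.53 and 5.08, and for C4b 6.47 and 5.57. H2-D1 changed by 3.38 and 3.74, and Cldn11 by 2.23 and 1.85. For Slc1a2 the values were -2.87 and -2.12, for Gja1 -4.42 and -3.50, and for Rapgef4 -2.47 and -2.23. With the siRNA label alone, Cldn11 (adjusted p = 0.0542, edgeR) and Gja1 (0.146) did not pass, while the other genes named here did. The interferon-induced effectors held 11 calls against control in stroke, and 2 with the siRNA label, with medians of 2.52 and 2.25. Astrocyte homeostasis held 7 and 2, with medians of -1.86 and -2.06, and the injury-reactive oligodendrocyte list 7 and 5, with medians of 2.35 and 1.87.

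Some lists that bear on repair held no call in the pooled comparison. In stroke alone against control, edgeR called 3 growth cone, 1 TGF-beta and BMP, 1 cell death and 1 cholesterol synthesis gene, all higher. In the siRNA-labelled group alone it called 0 in each of these lists. None of 30 growth cone and immature neuron genes passed in edgeR, 8 were higher and 0 lower by unadjusted p under 0.05, and DESeq2 called 4 higher. Igfbpl1, a binding protein of immature neurons, was at 5.04 ± 1.12 (SE, adjusted p = 0.0656) and Marcksl1, which links membrane and actin, at 2.30 ± 0.57 (SE, adjusted p = 0.0910). In 15 of the 30 all stroke libraries were above all siRNA-labelled ones and in 0 the reverse, against 8.11% and 7.77% of all genes tested. The medians against control were 0.79 in stroke and -0.03 with the siRNA label. Of 43 TGF-beta and BMP ligands, receptors and SMADs, the family to which Gdf10 belongs, none passed in edgeR, 4 were higher and 4 lower by unadjusted p, and DESeq2 called 1 higher and 3 lower. Bmp4, a BMP ligand also made by maturing oligodendrocytes, was at 2.09 ± 0.47 (SE, adjusted p = 0.0656). None of 25 cell death genes passed in edgeR, with 6 higher by unadjusted p, 3 called higher by DESeq2 and Cdkn1a, the cell cycle inhibitor p21, at 2.18 ± 0.55 (SE, adjusted p = 0.100). None of 25 cell cycle genes passed in edgeR (6 higher by unadjusted p, 3 by DESeq2), nor did any of 23 cholesterol synthesis genes (2 higher and 2 lower by unadjusted p, 1 higher by DESeq2). For all these lists the background is 2397 of 17909 genes by unadjusted p under 0.05 and 768 by DESeq2.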

How the data were processed

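The series holds 12 RNA sequencing libraries, 3 per group, of which 9 are compared here. Raw read counts per gene, as deposited by the authors for 23253 gene symbols, were analysed. CASAVA 1.8.2, edgeR and the build mm10 are named in the submitters' processing notes. Neither aligner nor strand setting is given in the sources used here. The authors' deposited normalized counts (a signal), log2 fold changes, per-library log2 ratios, p-values and false discovery rates were not used. A column named P3 was matched to a P4 library by its number.

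In R 4.3.3, genes were filtered with filterByExpr by group, which left 17909, scaled with TMM factors and fitted over all 12 libraries with edgeR 4.0.16 (quasi-likelihood), with 1 mean for the 6 stroke libraries, 1 for adult control and 1 for P4. P was adjusted by Benjamini-Hochberg over all genes tested, with a threshold of 0.05. The stroke groups were compared in a fit with 1 mean per group. SE was obtained as the size of the log2 fold change over the square root of F. DESeq2 1.42.0 was an alternative. The fit was also run on simulated counts, with no difference between the stroke groups and no library that stands apart. That run therefore does not bear on calls that depend on these features. Positions and promoters are those of RefSeq, and 22921 symbols were matched.

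Named genes were Gdf10, the 12 largest called changes per direction with at least 5 CPM and no overlap, and up to 4 called members of each list. Other called genes, and the promoters of Cxcl10, Irgm2 and B2m, were named after their values were seen. The 39 gene lists and the comparison itself were chosen with earlier results of these data known. Some genes are counted but not reported here by name. Intervals from counts cover counting error only.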

Additional observations from a re-analysis of the deposited data

Results flagged for a closer look

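In groups of 6 stroke libraries, 1 library lay far from the others in 6 of 59 values examined, where chance gives about 1 in 20. In siRNA-labelled 2, Gpnmb was at 409 CPM, Spp1 at 420.1 CPM and Vim at 171 CPM, each far above the other 5 stroke libraries, and the monocyte and neutrophil markers held 0.00126% of counts. In siRNA-labelled 3, Slc1a3 was at 79.8 CPM, still below every control. In stroke 6 the endothelial markers held 0.00459% of counts.

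Gng4, a gamma subunit of G proteins, differed between the stroke groups by -2.85 on the log2 scale, siRNA-labelled minus stroke (adjusted p = 0.0230, edgeR). It was at 144, 137 and 219 CPM in stroke 4, 5 and 6, at 23.7, 17.4 and 28.0 CPM in the siRNA-labelled libraries and at 16.4, 13.0 and 20.3 CPM in the controls. All stroke libraries were above all others. Without any 1 of the 6 stroke libraries its adjusted p was 0.0572 to 0.373. It did not pass in the pooled comparison (2.52 ± 0.74 SE, adjusted p = 0.148).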

How the results depend on the processing

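The 74 pooled calls became 146 without the filter on low counts and 768 with DESeq2. With a replicate block there were 11, where the difference from control came from the siRNA-labelled libraries only. The calls were 126 with the stroke libraries alone and 21 with the siRNA-labelled libraries alone. They were 103 with 1 mean per group, 68 with the 9 libraries alone, 83 with DESeq2 size factors and 71 with the 45S share class as a term, which was chosen after seeing the data. With the 9 libraries alone, 55 of the 74 were among the calls. Leaving out each library gave 36 to 409, with 12 to 102 higher and 18 to 307 lower. DESeq2 called 338 higher and 430 lower, and the block 11 higher and 0 lower. The share of higher genes among the calls was 37.7% without the filter, 22.6% without adult control 1, 24.9% without adult control 2, 69.0% with stroke alone and 71.4% with the siRNA-labelled group alone. All 74 genes kept their direction in each fit named here, except 1 with the 9 libraries alone, where its counts were too low to be tested. The 1 call between the stroke groups, Gng4, became 2 without the filter, 161 with DESeq2 and 0 to 0 when a library was left out. No marker share passed in any setting. The smallest exact p that 6 against 3 libraries allow is 0.0238 before adjustment over 12 lists, and it is larger with fewer libraries. The lack of a pass therefore does not show that the shares were alike. Astrocyte and excitatory neuron shares were lower in every stroke library than in every control. For the named genes, 608 of 846 alternative values stayed on their side of the threshold, 238 no longer passed and 0 reversed. Of the 74, 30 moved by more than 1.5 times in fold change, before taking the log, when 1 library was left out. Of these, 15 did so without adult control 3, 11 without adult control 2 and 4 without adult control 1. The cause of these differences was not tested.

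The block used the library number. Controls share their numbers with siRNA-labelled libraries only, so in that fit the stroke libraries added to the spread but not to the difference. Deviations of controls and siRNA-labelled libraries of the same number correlated at 0.0642, -0.191 and -0.336. Those of different numbers correlated at -0.317 to 0.481. Deviations within groups this small depend on each other, so these values cannot decide whether the numbers pair the samples. No other groups were checked in this way. Depth of 10517638 counts in adult control 3 limits genes with few counts.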
